A study of Rattus norvegicus with 8 samples.

Results

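The interferon response genes of the rat pineal gland were followed as 53 RefSeq transcripts of 52 gene symbols, out of 16932 transcripts of 16462 symbols with a deposited value. They were chosen by symbol: the interferon receptor subunits (Ifnar and Ifngr), their Stat transducers, the interferon regulatory factors (Irf), the RNA sensors Ddx58, Ifih1 and Dhx58, Eif2ak2, and the induced antiviral families (Mx, Oas, Ifit, Ifi, Ifitm, Gbp, Isg, Usp18, Rsad2 and Bst2). Glands came from Sprague-Dawley rats, an outbred laboratory stock, for which the labels name no treatment other than a lighting cycle with 14 h light and 10 h dark. The ages were embryonic day 21 (E21), postnatal day 5 (P5), postnatal day 20 (P20) and postnatal day 40 (P40). Every age has a mid-day library (zeitgeber time 7) and a mid-night library (zeitgeber time 19). Glands were pooled, from 13 animals (E21 mid-day), 15 (E21 mid-night), 17 (P5 mid-day), 19 (P5 mid-night), 13 (P20 mid-day), 10 (P20 mid-night), 3 (P40 mid-day) or 3 (P40 mid-night). A single pool per age and time gives no spread between animals, so an age is represented by its mid-day and mid-night libraries, and a mean ± SD below is over these (n = 2).

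Interferons are secreted by cells that sense viral nucleic acid and by activated lymphocytes. Type I interferon binds Ifnar1 and Ifnar2, and interferon gamma binds Ifngr1 and Ifngr2. Both receptors signal through Janus kinases to Stat transducers, of which Stat2 serves the type I receptor. Stat2 acts in a complex with Irf9 that binds a promoter element with repeated GAAA, the interferon-stimulated response element, while the interferon gamma pathway acts on the gamma-activated site. Their targets include antiviral enzymes, the sensors themselves and Irf7, a factor that drives further interferon synthesis. The brain keeps a low tonic level of this program without infection, and microglia, endothelium and meninges are among its known sites. The pineal gland makes melatonin at night, lies outside the blood-brain barrier and holds microglia beside its pinealocytes.

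Levels are in FPKM, the unit of the deposited values: fragments mapped to a transcript, divided by its length in kilobases and by the size of the library. Between 8598 and 9533 transcripts reached 1 FPKM in a library. Fragment totals are unknown. The value of 1 fragment on a 1-kb transcript was estimated from the lowest values of olfactory receptor transcripts near that length, 5 to 19 per library. It was 0.0279 FPKM (P40 mid-night, by this estimate the deepest) to 0.0679 FPKM (P20 mid-day, the shallowest). Summed FPKM of 10 pinealocyte markers (Tph1, Asmt, Aanat and others) was 855 to 884 at E21 and 2898 to 5480 later. Aanat, the enzyme that times melatonin synthesis, was at 6.21 FPKM by day and 572 FPKM by night at P20, and at 1.72 FPKM and 321 FPKM at P40, which matches the labelled times. The P5 mid-night library held 17759 FPKM of 8 choroid plexus markers and the P5 mid-day library 3013 FPKM, against 496 to 1374 FPKM at other ages. In bulk tissue, fewer cells of a type and less RNA per cell cannot be told apart.

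Of the 53 transcripts, 39 reached 1 FPKM in at least 2 libraries and were tested, and 14 did not. The highest value among those 14 was 0.775 FPKM (Irf5, at P40 mid-day). Among them were Irf4, Irf5, Isg20, Isg20l2, Ifi204, Ifit1, Oas1d, Oas1e, Oas1f, Oas1h, Oas1k, Oas2 and Eif2ak2. Oas1d, Oas2 and Eif2ak2 (the kinase PKR) were listed at 0 in every library. Oas2 and Eif2ak2 lie on contigs with no fixed place in the rn4 genome, where 89 of 141 transcripts (63.1%) were listed at 0 throughout, against 17.5% of all transcripts, so a 0 there need not mean an unexpressed gene. Usp18, listed at 0 at P5 mid-day, lies on such a contig too. Of the tested transcripts, 8 reached 1 FPKM in fewer than 2 libraries outside P40 (Ifit3, Oas1a, Oas1b, Oas1i, Mx1, Usp18, Dhx58 and Gbp5). These entered through the age at which they are high, and their rise is in part a condition of being tested.

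Most of the response program was low at E21 and highest at P40. Between these ages 30 of the 39 tested transcripts rose and 3 fell (limma on log2(FPKM + 1), Benjamini-Hochberg adjusted p under 0.05), and 6 did not pass. Among all 9960 transcripts tested, 16.1% rose and 26.8% fell. The median difference was 1.43 on the log2 scale over the 39 and -0.18 over all transcripts tested. Among the 31 transcripts that did not need P40 to be tested, 22 rose and 3 fell. Differences on this scale understate the fold change of transcripts near or under 1 FPKM.

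**Figure D1:**
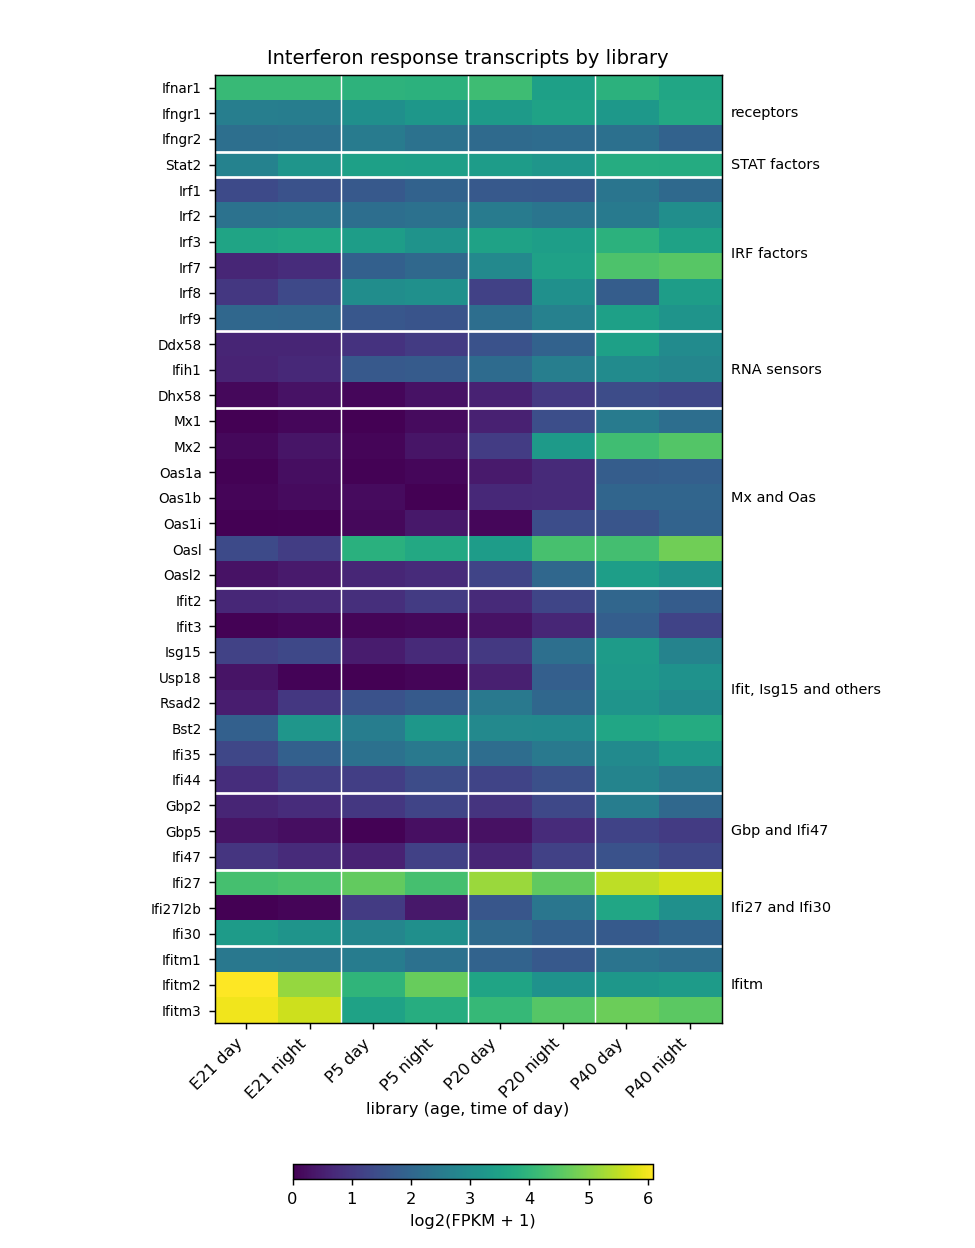
Colour gives log2(FPKM + 1) of 37 tested interferon response transcripts (rows, grouped by role) in the 8 libraries (columns, mid-day and mid-night of each age). Mx1, Mx2, Oasl2, Ddx58 and Usp18 are darkest at E21 and P5 and lightest at P40, Oasl is light from P5 on, while Ifitm2 and Ifitm3 are lightest at E21 (61.4 and 67.1 FPKM at mid-day for Ifitm3 and Ifitm2).

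The interferons themselves were not detected at a level that could be followed. Ifna1, Ifnb1 and Ifng were listed at 0 in all 8 libraries, and Ifna4 and Ifnk reached at most 0.069 FPKM (P20 mid-night) and 0.120 FPKM (P5 mid-night), in libraries where 1 fragment on a 1-kb transcript is worth 0.0473 and 0.0488 FPKM. Ifnar1, the type I receptor chain and the highest of the receptor subunits, was at 16.0 FPKM (mid-day) and 16.2 FPKM (mid-night) at E21, 14.4 and 14.0 FPKM at P5, 17.5 and 9.95 FPKM at P20, and 14.1 and 11.1 at P40. Both E21 values lay within the range of the P20 pair and above the P40 pair, and the P40 minus E21 difference of -0.34 (SE 0.22) did not pass (limma adjusted p = 0.24). Ifngr1, the ligand-binding chain of the interferon gamma receptor, was at 5.04 and 4.99 FPKM at E21, 7.13 and 8.26 at P5, 9.03 and 10.3 FPKM at P20, and 8.49 and 11.8 at P40. It rose by 0.88 (SE 0.18, limma adjusted p = 0.0066) from E21 to P40, with both E21 libraries below the other 6. Ifngr2, its partner chain, ranged from 2.74 to 4.80 FPKM and did not pass. Receptor RNA was thus present from E21, and 1 of 3 subunits changed.

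Stat2 and Irf9, which act together, both rose over the span. Stat2 was at 5.49 and 8.0 FPKM at E21, 10.1 and 9.90 at P5, 9.25 and 8.11 FPKM at P20, and 12.6 and 12.4 at P40. Its rise to P40 was 0.82 (SE 0.20, limma adjusted p = 0.014), and both P40 libraries lay above the other 6. Irf9, the DNA-binding partner of Stat2, passed at no single step and rose over the whole span by 1.29 (SE 0.22, limma adjusted p = 0.0031), from 3.04 ± 0.041 FPKM at E21 to 8.93 ± 1.5 FPKM at P40.

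Among the regulatory factors, Irf7 climbed at every age. It was at 0.573 and 0.705 FPKM at E21, 2.63 and 3.16 at P5, 6.24 and 10.2 FPKM at P20, and 19.8 and 21.6 at P40. No age overlapped the next, and night was above day at each. The rise from E21 to P40 was 3.73 (SE 0.20, limma adjusted p = 3.3e-05), made of 1.25 (SE 0.20, adjusted p = 0.0068) from E21 to P5, 1.21 (SE 0.20, adjusted p = 0.015) from P5 to P20, and 1.27 (SE 0.20) from P20 to P40, a step that did not pass (adjusted p = 0.15). The step to P20 lost its call without either P5 library or without P20 mid-night, and the step to P5 was lost without P5 mid-day. Irf3, the constitutive factor downstream of the sensors, was at 10.7 and 11.3 FPKM at E21, 9.49 and 7.71 at P5, 10.4 and 9.69 FPKM at P20, and 14.1 and 10.3 at P40, and did not pass in any comparison. Irf1, an interferon gamma target, ranged from 1.59 to 4.16 FPKM and rose by 0.77 (SE 0.20). Irf2, its antagonist, ranged from 3.61 to 7.09 FPKM and did not pass. Across these libraries Irf7 went from the lowest of the 6 tested factors at E21 to the highest at P40.

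All 3 sensors of cytoplasmic double-stranded RNA rose. Ifih1 (MDA5) was at 0.517 and 0.632 FPKM at E21, 2.24 and 2.38 at P5, 3.36 and 5.11 FPKM at P20, and 6.67 and 5.96 at P40. It rose by 2.22 (SE 0.21, limma adjusted p = 2e-04) over the span and by 1.07 (SE 0.21, adjusted p = 0.013) by P5, with no overlap between successive ages. Ddx58 (RIG-I) was at 0.550 and 0.560 FPKM at E21, 0.849 and 1.08 at P5, 1.91 and 2.75 FPKM at P20, and 9.94 and 6.66 at P40, a rise of 2.56 (SE 0.24, limma adjusted p = 2e-04). Its largest step was the last, 1.47 (SE 0.24, unadjusted p = 0.00029, adjusted p = 0.15, limma). By P5 Ddx58 had not passed (0.34, SE 0.24), and whether it differed from Ifih1 in this step was not tested. The call of Ifih1 at P5 was lost at a pseudocount of 5 and without any of the E21 or P5 libraries (highest adjusted p 0.102). Dhx58 (LGP2) ranged from 0.0694 to 1.68 FPKM and rose by 1.14 (SE 0.19), but it was tested only through its P40 values.

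Each of the 7 tested Mx and Oas transcripts rose, but Mx1, Oas1a, Oas1b and Oas1i were tested only through their P40 values. Mx2, a dynamin-like GTPase that blocks viruses, had the largest difference of the set on the log2(FPKM + 1) scale. At a pseudocount of 0.1 the difference was 6.16 for Mx2 and 6.17 for Ifi27l2b. Mx2 was at 0.0987 and 0.269 FPKM at E21, 0.0536 and 0.266 at P5, 1.10 and 9.03 FPKM at P20, and 17.7 and 21.1 at P40. All E21 and P5 values were at or under 0.269 FPKM, P20 split by time of day, and P40 was above all. The P40 minus E21 difference was 4.11 (SE 0.47, limma adjusted p = 0.00054) and the P20 minus P5 difference 1.99 (SE 0.47, adjusted p = 0.047). The latter call was lost under 12 of 17 alternatives (highest adjusted p 0.357), among them without P5 mid-day, P5 mid-night, P20 mid-night, P40 mid-day or P40 mid-night. Mx1 lies beside Mx2 (chromosome 11, 37438472 to 37572716 in rn4 for both), ranged from 0 to 4.81 FPKM and rose by 2.30 (SE 0.28).

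Oasl, an Oas-like protein, followed another course. It was at 1.60 and 1.14 FPKM at E21, 13.6 and 11.7 at P5, 9.27 and 19.1 FPKM at P20, and 18.4 and 26.1 at P40. Both E21 libraries lay far below all later ones, and P5 and P20 overlapped. Its rise was 2.53 (SE 0.30, limma adjusted p = 0.0024) by P5 and 3.28 (SE 0.30, adjusted p = 2e-04) by P40, so that most of the change was already in place at P5, and both calls held under every alternative. Oasl2, a neighbouring relative, was instead at 0.232 to 0.682 FPKM through P5 and at 9.73 and 7.71 FPKM at P40, a rise of 2.90 (SE 0.26).

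The Oas1 genes, a family that includes makers of the 2-5A messenger that activates RNase L, form a run of 8 paralogs on chromosome 12 (36760820 to 36906328 in rn4). Only Oas1a, Oas1b and Oas1i were tested, and all 3 rose, with values of 2.02 to 2.99 FPKM at P40 and at most 0.162 FPKM at E21. Each of the 3 reached 1 FPKM in fewer than 2 libraries outside P40, so its rise is in part a condition of being tested. The other 5 stayed at or under 0.143 FPKM in every library. Fragments of near-identical copies may be split between these genes, so single values within the family are uncertain.

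**Figure D2:**
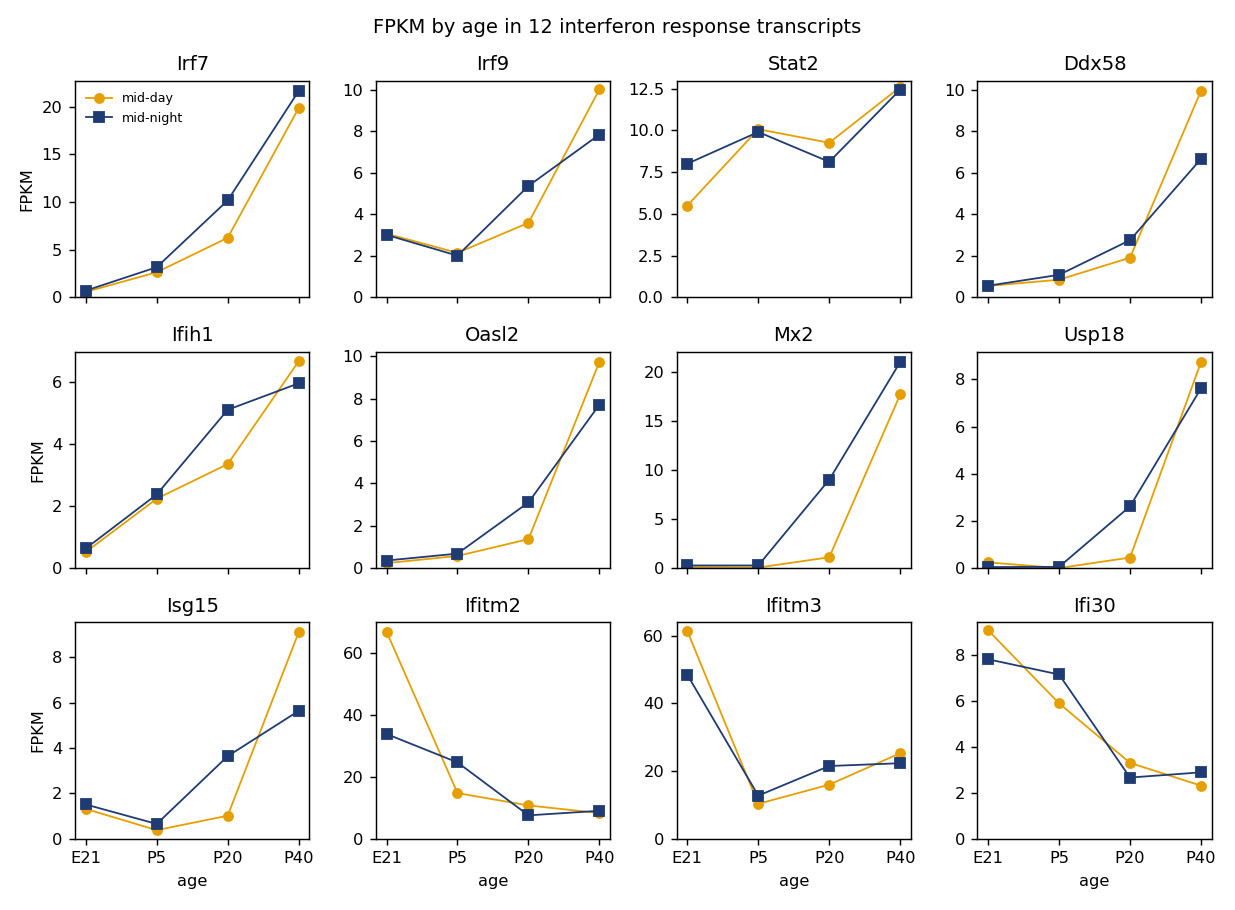
FPKM (vertical axis, linear from 0, a scale of its own in each panel) against age for 12 transcripts, with circles for mid-day and squares for mid-night libraries, 1 pool each. Irf7, Ddx58, Oasl2, Mx2 and Usp18 are highest in both P40 libraries, whereas Ifitm2, Ifitm3 and Ifi30 are highest at E21; at P20 the mid-night library lies above the mid-day one for Mx2 (9.03 against 1.10 FPKM), Usp18 and Isg15.

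Isg15, a ubiquitin-like modifier, was at 1.32 and 1.51 FPKM at E21, 0.382 and 0.654 at P5, 1.02 and 3.64 FPKM at P20, and 9.10 and 5.64 at P40. It was lowest at P5 and highest at P40, and rose by 1.76 (SE 0.37, limma adjusted p = 0.007), a call lost without P40 mid-day (adjusted p = 0.052). Usp18, the protease that removes Isg15 and damps the type I receptor, was at 0.242 and 0.0427 FPKM at E21, 0 and 0.0516 at P5, 0.446 and 2.62 FPKM at P20, and 8.73 and 7.62 at P40. Its rise of 3.01 (SE 0.36, limma adjusted p = 0.00065) started from at most 0.242 FPKM. Usp18 lies on a contig with no fixed place in the genome, and was tested only through its P40 values. Rsad2 (viperin) ranged from 0.399 FPKM at E21 mid-day to 7.83 FPKM at P40 mid-day and rose by 2.30 (SE 0.25), with P40 above the other libraries. Ifit2, Ifit3, Ifi35 and Ifi44 also rose, with highest values of 3.00, 2.51, 8.51 and 5.70 FPKM, all at P40. Ifi35 had passed the test by P5 too (0.79, SE 0.18), a call that 8 of 17 alternatives lost.

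Bst2 (tetherin) was at 2.63 and 8.11 FPKM at E21, 5.01 and 8.31 at P5, 6.27 and 6.36 FPKM at P20, and 11.2 and 12.5 at P40. The E21 pair overlapped both P5 and P20, and both P40 libraries stood above the rest. Its rise of 1.16 (SE 0.31, limma adjusted p = 0.019) was lost without time of day as a term, without E21 mid-day and without P40 mid-day, with the highest adjusted p at 0.129. Ifi27, a small hydrophobic membrane protein and the most abundant member on average, was at 18.6 and 19.6 FPKM at E21, 23.7 and 18.7 at P5, 35.0 and 23.3 FPKM at P20, and 43.9 and 49.8 at P40, a rise of 1.25 (SE 0.22, limma adjusted p = 0.0034). Its neighbour Ifi27l2b ranged from 0 to 11.2 FPKM and rose by 3.29 (SE 0.34). The guanylate-binding protein Gbp2, a GTPase aimed at intracellular pathogens, was at 0.538 and 0.696 FPKM at E21, 0.981 and 1.39 at P5, 0.900 and 1.51 FPKM at P20, and 4.98 and 3.18 at P40, a rise of 1.63 (SE 0.25, limma adjusted p = 0.0017). Gbp5 reached 1.35 FPKM and rose by 0.87 (SE 0.21), while Ifi47 ranged from 0.489 to 1.90 FPKM and did not pass.

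Ifitm2, Ifitm3 and Ifi30 went the other way. Ifitm3, a membrane protein that hinders virus entry at endosomes, was at 61.4 and 48.5 FPKM at E21, 10.3 and 12.8 at P5, 16.0 and 21.5 FPKM at P20, and 25.3 and 22.3 at P40. It fell by 2.15 (SE 0.22, limma adjusted p = 0.0014) from E21 to P5. Later values lay between, above P5 and below E21, and the P40 minus E21 difference was -1.17 (SE 0.22, adjusted p = 0.0047). Ifitm2, its neighbour, was at 67.1 and 33.9 FPKM at E21, 14.8 and 24.7 at P5, 10.8 and 7.59 FPKM at P20, and 8.32 and 9.06 at P40. It fell by 2.33 (SE 0.35, limma adjusted p = 0.0017) over the span, with both E21 libraries above the other 6, and by 1.27 (SE 0.35, adjusted p = 0.048) by P5, a call that 13 of 17 alternatives lost. Ifitm1 ranged from 2.24 to 4.89 FPKM and did not pass. All 3 lie together on chromosome 1 (201134356 to 201199768 in rn4) and may share fragments. Ifi30, a lysosomal thiol reductase of antigen processing, was at 9.10 and 7.83 FPKM at E21, 5.91 and 7.17 at P5, 3.31 and 2.67 FPKM at P20, and 2.32 and 2.90 at P40. It fell by 1.39 (SE 0.20, limma adjusted p = 0.0014) over the span, and the E21 and P5 libraries all lay above the P20 and P40 libraries. Summed markers of fibroblasts and meninges, at 856 and 1208 FPKM at E21, were at 157 and 124 FPKM at P40. Of these 7 markers 6 fell, against 26.8% of all transcripts. Dpt, a matrix protein, rose by 3.63 (SE 0.18, limma adjusted p = 2.3e-05), from 0.883 and 0.924 FPKM to 20.8 and 24.5 FPKM. All 6 tested endothelial markers fell, against the same 26.8%, with the sum of the 7 found moving from 49.1 and 64.8 FPKM to 20.0 and 15.9 FPKM. The part of these cells in the fall of Ifitm2, Ifitm3 and Ifi30 was not tested.

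**Figure D3:**
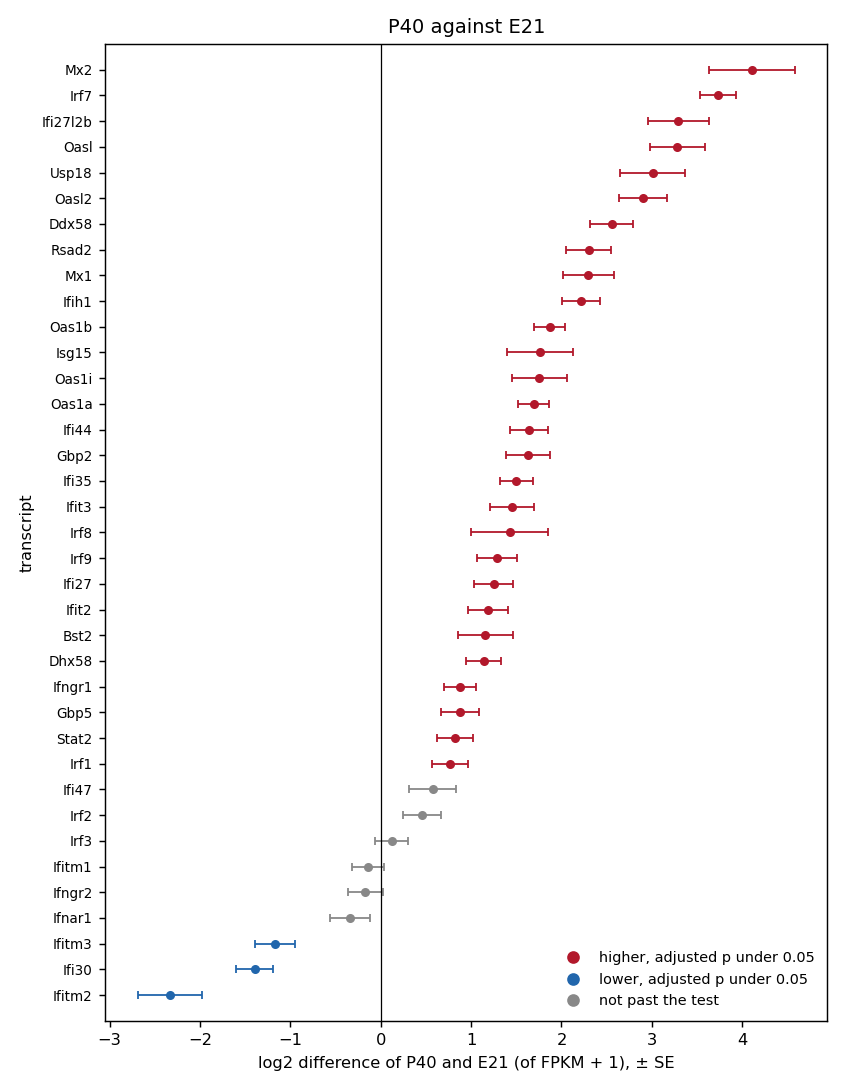
Difference of P40 and E21 in log2(FPKM + 1) for 37 tested transcripts (points), with bars of 1 standard error from the limma fit to 8 libraries; colour marks the direction of those with an adjusted p under 0.05. Of these, 28 lie to the right, led by Mx2 (4.11) and Irf7 (3.73), and 3 to the left (Ifitm2, Ifi30 and Ifitm3).

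The calls held to different degrees. Of the 33 calls between P40 and E21, 25 held under every alternative setting and left-out library in which the transcript was tested. Among these 25 were Ifit3, Oas1a and Oas1b, which were not tested once a P40 library was left out. Their calls were thus not checked against that loss. Usp18, Dhx58, Mx1 and Oas1i were among the 25 as well. All of these named transcripts were tested only through their P40 values, so their rise is in part a condition of being tested. The other 8 of the 33 calls were lost under at least 1, in each case including the removal of an E21 or P40 library. Among the 8 were Irf8, Stat2, Isg15, Gbp5, Irf1, Ifngr1 and Bst2. Stat2 was not called without E21 mid-day, P40 mid-day or P40 mid-night (highest adjusted p 0.113). Ifngr1 was not called without E21 mid-night or P40 mid-night (highest 0.0776). Irf1 was not called without either E21 library or P40 mid-day (highest 0.143), and Gbp5 without E21 mid-night (0.096). Irf8 was lost with no filter, with no term for time of day, and without E21 mid-night or P40 mid-night (highest 0.199). Without P40 mid-day or without P40 mid-night, 25 of 35 tested transcripts were called.

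The change was spread unevenly over the ages. From E21 to P5, 5 of 39 rose (Oasl, Irf8, Irf7, Ifih1 and Ifi35), against 8.29% of all transcripts, and 2 fell (Ifitm3 and Ifitm2), against 6.84%. The median difference was 0.04 over the 39 and -0.04 over all. From P5 to P20, Irf7 and Mx2 rose, against 1.02% of all transcripts, and Ifi30 fell by 0.92 (SE 0.20), against 5.99%. The P5 steps hold the mid-night library with choroid plexus RNA: without it, 5 transcripts were called between P5 and E21 and 0 between P20 and P5, against 6.36% and 0.355% of all transcripts in the same fits. Without the mid-day library of P5 these counts were 2 and 0, against 4.41% and 3.64%. Without P20 mid-night the step from P5 to P20 had 0 calls as well, against 0.534% of all. With all libraries 15.1% and 7.02% of all transcripts were called in these steps, so calls over the whole gland fell too. The P5 mid-day library also held choroid plexus RNA (3013 FPKM, against 496 to 1374 FPKM at other ages). Leaving out P5 mid-night thus did not free P5 of it. The fall of Ifi30 in that step was lost under 10 of 17 alternatives (highest adjusted p 0.3). The medians of the step to P20 were 0.37 and -0.18.

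From P20 to P40 no transcript of the gland passed limma's adjusted threshold, so 0 of 39 and 0% of all were called. At an unadjusted p under 0.05 there were 28 of 39 against 6.72% of all. The median difference was 0.76 over the 39 and 0.04 over all. On the log2(FPKM + 1) scale the largest differences were those of Mx2 (2.15, SE 0.47), Usp18 (2.0, SE 0.36), Oasl2 (1.64, SE 0.26) and Ddx58 (1.47, SE 0.24). Both P40 libraries lay above both P20 libraries for 30 of 39, against 18.7% of all transcripts, and above all other 6 libraries for 28 of 39, against 7.26%. The 8 transcripts tested only through P40 are in each of these counts and in the median of 0.76. These values are thus in part a condition of being tested. Of the 31 that did not need P40 to be tested, 20 lay above all other 6. The P40 pools held 3 animals each and the P20 pools 13 and 10, so the number of animals moves with this step, and its part was not tested.

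By time of day, the share of these transcripts called was near that of all transcripts. Over the 4 ages, 0 of 39 passed limma's adjusted threshold, as did 0% of all transcripts, and 4 (Irf8, Bst2, Ifi35 and Oas1i) had an unadjusted p under 0.05, against 10.2%. The mid-night library was the higher one for 27 of 39 transcripts at E21, against 47.7% of all transcripts, and for 29 at P5, against 61.8%. It was so for 28 at P20, against 32.3%, and for 16 at P40, against 43.1%. These counts are of single libraries, with no test. At P20 and P40 together 1 transcript passed, Irf8, against 2.8% of all transcripts that were higher at night.

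Irf8, a factor required for microglia and other myeloid cells, was at 0.987 FPKM (mid-day) and 1.55 FPKM (mid-night) at E21, 6.96 and 7.34 FPKM at P5, 1.27 and 7.29 FPKM at P20, and 2.48 and 9.52 at P40. The P5 pair lay close together, and at P20 and P40 the mid-night library was far above the mid-day one. Irf8 rose by 1.86 (SE 0.43, limma adjusted p = 0.026) from E21 to P5, a call lost under 4 of 17 alternatives, among them without E21 mid-night or P5 mid-day. The night effect at P20 and P40 was 1.73 (SE 0.18, limma adjusted p = 0.0025), and this call held under 17 of 17 alternatives. The difference between this effect and that at E21 and P5 was 1.52 (SE 0.25, limma adjusted p = 0.047), against 0.612% of all transcripts with a higher night effect in the older glands. That call was lost under 13 of 17 alternatives (values 0.877 to 1.83, highest adjusted p 0.263), including the removal of any 1 library. None of the 12 tested microglia and macrophage markers passed for night at P20 and P40. Their summed FPKM was 41.4 by day and 41.4 by night at P20, and 57.2 and 68.9 at P40. Csf1r, the receptor for the microglial growth factor, was at 11.5 and 6.71 FPKM at P20 and 8.50 and 11.1 FPKM at P40, and Tyrobp at 3.12 and 2.49 and at 5.68 and 6.20. These 2 were lower at mid-night at P20 and higher at P40. C1qa, a complement chain made by microglia, was higher at mid-night at both ages, at 7.13 and 10.4 FPKM and at 13.7 and 22.8 FPKM (night effect 0.59, SE 0.16, limma adjusted p = 0.09). The part of microglia in the night level of Irf8 was not tested further.

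**Figure D4:**
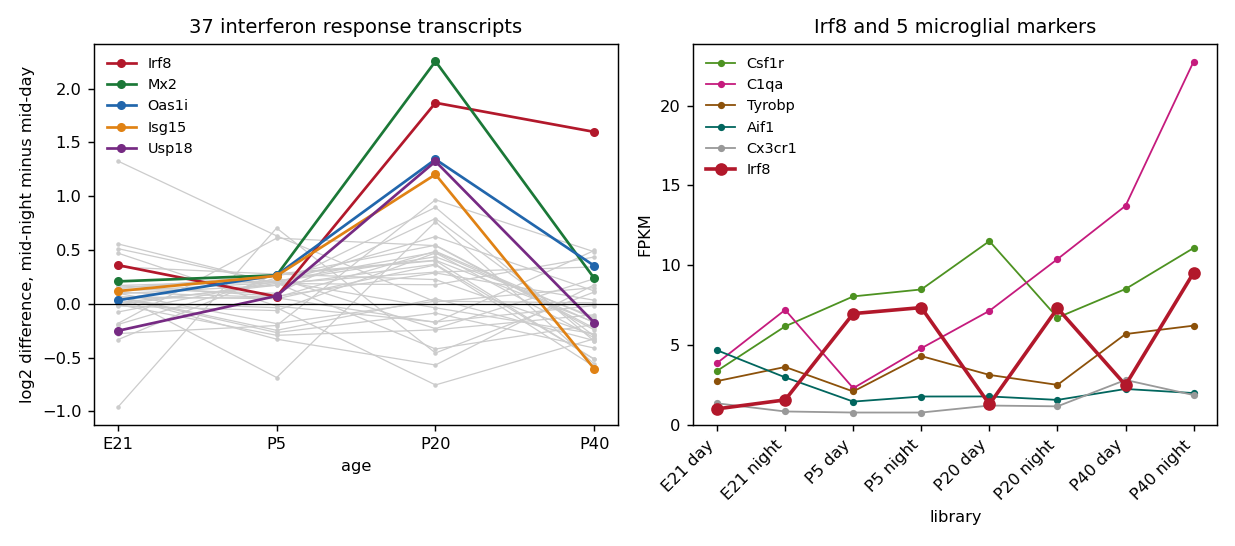
Left, mid-night minus mid-day difference in log2(FPKM + 1) at each age for 37 tested transcripts (lines), with the 5 that were at least 2-fold higher at P20 mid-night in colour; each point compares 1 pool with 1 pool. Right, FPKM of Irf8 and 5 microglial markers in the 8 libraries; Irf8 swings between 1.27 and 7.29 FPKM at P20 and between 2.48 and 9.52 FPKM at P40, whereas Csf1r and Tyrobp are lower at P20 mid-night and C1qa is higher at mid-night at both ages.

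At single ages there was 1 library per time and no test, and folds here are of FPKM + 1. At E21, 1 of 39 was at least 2-fold higher at mid-night (Bst2, 1.33 on the log2 scale), against 0.783% of all transcripts, and at P5 none was, against 1.55%. At P20 there were 5, against 2.44%: Mx2 (2.25), Irf8 (1.87), Oas1i (1.34), Usp18 (1.32) and Isg15 (1.2). At P40 there was 1, Irf8 (1.60), against 3.04%. None was at least 2-fold lower at mid-night at any age on this scale. Ratios of FPKM itself are larger for low transcripts, so that Oasl2 at P20 (1.37 and 3.10 FPKM) and Ifi27l2b at P5 (1.10 and 0.303 FPKM) are not among these counts, nor is Oasl at P20 (9.27 and 19.1 FPKM). Usp18 and Isg15, which were higher by night at P20, differed by -0.18 and -0.61 at P40, and Mx2 by 0.24. Of these 5, Irf8 was the one that was at least 2-fold higher at both P20 and P40.

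Promoter windows of RefSeq (assembly GRCr8, 250 bases before to 50 after the start) were matched by gene identifier for 38 of the 52 genes. Genes without one included Oas1k, Oas2, Usp18, Ifit2, Irf2, Dhx58, Ifitm1, Ddx58, Isg15, Ifit1, Mx2 and Ifi27l2b. The core of the interferon-stimulated response element was searched as GAAA, any 2 bases, GAAA on either strand. It was present in 17 of 38 windows (44.7%), against 4.12% of the 27457 genes with a window. The gamma-activated site, TTCNNNGAA on either strand, was in 10 of 38 (26.3%), against 9.39% of genes. A match is a description of these letters and not a measured binding site. The motifs can overlap, as they do in the Bst2 window. Of the genes with a window, 13 of 21 that rose from E21 to P40 held the core, as did 2 of 3 that fell and 0 of 4 that did not pass. The gamma-activated site was in 6 of 21, 1 of 3 and 1 of 4. Ifit3, Gbp5, Oas1a, Oas1b and Oas1i, all among the 13 with the core, were tested only through their P40 values. So was Mx1, which is among the 21 and has no core match. The rise of these genes is in part a condition of being tested.

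The stretches around the core are shown for the 6 genes with a match and the largest rise to P40, 5′ to 3′ on the gene's strand, with the core in capitals, to show what the matches look like. They were chosen for holding a match, and Oasl and Mx1, which rose by 3.28 and 2.30, have none in their windows. The capitals begin 69 bases before the start in Irf7 (chr1:205800053-205800122, minus strand), 151 in Oasl2 (chr12:47383297-47383366, minus), 147 in Rsad2 (chr6:48788228-48788297, minus), 59 in Ifih1 (chr3:67683988-67684057, minus), 59 in Oas1b (chr12:41395872-41395941, minus) and 36 in Oas1i (chr12:41285160-41285229, plus). In Oas1b and Oas1i 2 overlapping matches run together.
Irf7: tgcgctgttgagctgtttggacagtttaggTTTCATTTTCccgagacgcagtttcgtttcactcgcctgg
Oasl2: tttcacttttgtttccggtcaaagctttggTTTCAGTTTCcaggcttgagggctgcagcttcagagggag
Rsad2: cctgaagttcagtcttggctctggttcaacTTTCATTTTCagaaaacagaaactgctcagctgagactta
Ifih1: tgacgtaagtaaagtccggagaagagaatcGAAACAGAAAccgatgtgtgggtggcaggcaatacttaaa
Oas1b: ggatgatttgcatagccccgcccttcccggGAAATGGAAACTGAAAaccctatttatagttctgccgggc
Oas1i: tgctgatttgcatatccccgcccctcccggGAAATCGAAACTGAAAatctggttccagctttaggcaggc

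Ifitm2 and Ifitm3, which fell, hold the core as well, 33 and 44 bases before the start (chr1:205482342-205482411 and chr1:205541763-205541832, both minus strand). They are shown to set beside the genes that rose. In Ifitm3 the second run of capitals is a gamma-activated site.
Ifitm2: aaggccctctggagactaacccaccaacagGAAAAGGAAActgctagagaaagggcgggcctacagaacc
Ifitm3: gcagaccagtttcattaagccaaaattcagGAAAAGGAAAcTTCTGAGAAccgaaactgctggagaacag

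Irf8 was the 1 member called for night at P20 and P40, against 2.8% of all transcripts. Its window has no core match and 2 gamma-activated sites, in capitals, which begin 180 and 161 bases before the start (chr19:65699074-65699142, plus strand).
Irf8: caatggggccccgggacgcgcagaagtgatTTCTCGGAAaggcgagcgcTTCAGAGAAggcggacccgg

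Other genes of the pathway were counted from lists. Of 29 other interferon-induced genes 23 were tested, and from E21 to P40 20 rose and 0 fell, with a median of 1.48, beside 16.1% and 26.8% of all transcripts. The most abundant of those that rose were Psme1, a proteasome activator (0.72, SE 0.17), Cmpk2, a mitochondrial kinase beside Rsad2 (2.40, SE 0.18), Lgals3bp, a secreted glycoprotein (2.39, SE 0.27), and Cxcl9, a chemokine for T cells (2.78, SE 0.56). From E21 to P5 3 of these 23 rose and from P5 to P20 1 rose, against 8.29% and 1.02% of all transcripts. Cxcl10, Uba7, Rtp4, Slfn3 and Lgals9, which rose to P40, reached 1 FPKM in fewer than 2 libraries outside P40. Their rise is in part a condition of being tested. Of genes upstream, 2 of 8 tested receptor signalling genes rose (Stat3, 0.62, adjusted p = 0.04999, and Il10rb, 1.16), as did 3 of 10 sensing genes (Mavs, 0.70, Trim25, 1.40, and Tlr3, 0.70), and none fell. Jak1, the kinase shared by both receptors, ranged from 19.5 to 24.6 FPKM and did not pass. Of 16 tested antigen presentation genes 12 rose, among them B2m (1.57, SE 0.23), Cd74 (3.72, SE 0.27) and RT1-A2 (3.84, SE 0.26). Tap1, Psmb8 and RT1-A1, also among the 12, were tested only through their P40 values.

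Markers of immune cells moved with age in part. Of the 12 tested microglia and macrophage markers, 5 rose from E21 to P40 (C1qa, Csf1r, Lyz2, Tyrobp and Cx3cr1) and 2 fell (Aif1 and Mrc1). Among all transcripts tested 16.1% rose and 26.8% fell. The sum of all 14 markers found was 36.0 and 43.8 FPKM at E21 and 57.2 and 68.9 FPKM at P40. The 11 T and NK cell markers summed to 0.905 to 2.96 FPKM over the libraries, with Cd3d at 0 throughout and 10 of them under 1 FPKM everywhere. B cell markers summed to at most 0.173 FPKM, with Ms4a1 at 0, and dendritic cell markers to at most 0.752 FPKM. The summed neutrophil markers were at 0.820 to 4.43 FPKM. The part of microglia in the rise of the interferon response transcripts was not tested.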

How the data were processed

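RNA of 8 pooled rat pineal libraries was measured. Per the submitters' processing notes, TopHat 1.3.1, Cufflinks 1.2.0 and genome build rn4 were used, and the authors deposited FPKM, 1 value per RefSeq transcript. Any further scaling or filter is not given in the sources used here, and depth is known only relatively. Here the 9960 transcripts with at least 1 FPKM in 2 libraries were analysed as log2(FPKM + 1) with limma 3.58.1 (R 4.3.3), with a trended eBayes prior and two-sided tests, and a call needed a Benjamini-Hochberg adjusted p under 0.05 over all of them. Both fits used all 8 libraries. The fit for ages and for night over 4 ages held age plus time of day, leaving 3 residual degrees of freedom (prior 4.82). The other replaced time of day by separate night effects of the younger (E21, P5) and older (P20, P40) glands, leaving 2 (prior 5.66). P-values rest on the residual spread of the 8 pools about each fit. With 1 pool per age and time of day, this spread holds technical variation and differences between pools. In the age fit it also holds any night effect that differs between ages, and these cannot be told apart. The age fit was tested on simulated data.

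The members and lists were chosen with earlier results of these data known. All 8 values are given for members past a test with a mean of at least 5 FPKM and for the highest of each role. Irf8, Isg15, Usp18, Ddx58, the members of counts of 5 or fewer, and the Ifitm and Irf8 promoters were named after their values were seen. Lists covered interferon ligands, receptor signalling, nucleic acid sensing, other interferon-induced genes, antigen presentation and markers of pinealocytes, microglia, T and NK cells, B cells, dendritic cells, neutrophils, endothelium, astrocytes, choroid plexus, erythroid cells, and fibroblasts and meninges. Astrocyte markers summed to 114 to 154 FPKM and erythroid markers to 1357 to 12274 FPKM (highest at E21 mid-day). Alternatives were pseudocounts of 0.1 and 5, no filter or 5 FPKM, quantile normalization, median centring, other eBayes settings, no time term, and leaving out libraries. Some transcripts counted among the members are not reported singly here.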

Additional observations from a re-analysis of the deposited data

Results flagged for a closer look

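The night effect on Irf8 was larger at P20 and P40 than at E21 and P5 by 1.52 on the log2 scale, by a test of the difference itself in limma (SE 0.25, adjusted p = 0.047). Mid-night minus mid-day was 0.36 at E21, 0.07 at P5, 1.87 at P20 and 1.60 at P40. It was higher at night in 4 of 4 ages. The adjusted p stayed under the threshold in 4 of 17 alternatives.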

How the results depend on the processing

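Between P40 and E21, 33 transcripts were called, against 42.9% of all transcripts tested. Alternatives gave 22 of 24 tested (5 FPKM filter, 43.5% of all) to 35 of 50 (no filter, 30.1% of all). Between P20 and P5, 3 were called in the fit reported (7.02% of all transcripts) and 7 at a pseudocount of 0.1 (7.51%). There were 6 after quantile normalization (5.34%), 1 at a pseudocount of 5 (3.99%) and 1 with no filter (2.67%). Night at P20 and P40 had 1 call and, after median centring, 2 (Oasl added). The difference of night effects had 1 call, and 0 at a pseudocount of 0.1, a pseudocount of 5, no filter, eBayes without trend and without both P5 libraries. With 1 library left out in turn, calls ranged from 25 to 33 (P40 and E21), 2 to 7 (P5 and E21), 0 to 4 (P20 and P5), 0 to 1 (P40 and P20), 0 to 0 (night over 4 ages), 1 to 2 (night at P20 and P40) and 0 to 0 (difference of night effects). A library left alone at its age was assumed to vary like the others. Between P40 and E21, P5 and E21, and P20 and P5, leaving out a library of either age also lowered the calls over all transcripts. The single call between P40 and P20 was Mx2 without P20 mid-night (3.15, limma adjusted p = 0.049). Mx2 was also the second night call without P40 mid-day or P40 mid-night.

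Uncalled P40 minus P20 differences changed sign for 6 transcripts when 1 library was left out. They ranged from -0.118 to 1.08 for Irf8, from -0.308 to 0.0169 for Ifi30, from -0.395 to 0.245 for Ifnar1, from -0.208 to 0.0906 for Ifngr2, from -0.26 to 0.148 for Ifitm2 and from -0.109 to 0.208 for Ifngr1. Ifngr1 was also at -0.0464 after quantile normalization. The cause was not tested. No paired analysis was possible because each combination of age and time of day is 1 pool, so that replicate numbers link none, beyond the comparison within ages that the night fits already make. Median centring moved the median of all transcripts between P40 and E21 from -0.18 to 0.01.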
